A study of Arabidopsis thaliana with 4 samples.

Results

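In developing fruits of Arabidopsis thaliana, 45 genes had transcripts at a high and nearly constant level from flower opening to seed filling. The fruits were seed pods, called siliques, of the Col-0 accession grown in long days. Age was counted from the opening of the flower, and 4 classes were collected. Stage 1 held fruits up to day 5, stage 2 those aged 6 to 10, stage 3 those aged 11 to 15, and stage 4 those aged 16 to 20 days. Total RNA of whole siliques was sequenced, with 1 library per stage and no mutant or treated group. The study asked how the fruit's transcripts differ between these ages, and the genes described here are abundant ones that differed little.

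A gene entered the set when its locus named that gene alone, spanned at least 300 bases between start and end, and reached an FPKM of at least 100 in all 4 libraries. FPKM is the number of sequenced fragments scaled to transcript length and library size. In addition, its range, the largest minus the smallest log2(FPKM + 1) over the stages, was at most 0.4. Of 29971 loci in the deposited values, 27536 named 1 gene and were long enough, 680 of these were abundant by the FPKM limit, and 45 of the 680 (6.62%) were flat by the range limit. Because these values chose the genes, their levels and ranges are given as a description. A stage with 1 library has no replicate error, so no test was run on any value.

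Genes of constant, high expression are often called housekeeping genes, since every living cell must make and recycle proteins, keep its membranes energised, move cargo along actin and remove reactive oxygen. Many of these tasks are done by large complexes whose subunits are encoded by separate genes, and in plants each subunit often has several gene copies. A silique changes from a growing green pod with young ovules to a mature pod with filling seeds, so cells of very different kinds contribute to the same RNA pool at different ages. In whole fruits, fewer cells of a type and less RNA per cell cannot be told apart.

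Markers of fruit and seed tissues differed widely between the libraries or stayed close, each in its own way. Seed storage protein transcripts of SESA2 stood at 2.55, 473, 21789 and 27188 FPKM in stages 1 to 4, and the embryo regulator LEC1 at 0.489, 78.6, 31.6 and 8.00 FPKM. FUL, a regulator of the pod wall, stayed between 37.0 and 60.2 FPKM, and SHP1, of the valve margin, between 45.01 and 62.0 FPKM. SHP2 was not analysed here. The pollen genes AGP6 and AGP11 were at 120 and 149 FPKM in stage 1 and at 4.21 FPKM or less later. The part of these shifts in cell content in any value below was not tested.

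The 45 genes held 1.08%, 1.47%, 1.19% and 1.19% of the FPKM sum over single-gene loci of at least 300 bases in stages 1 to 4. Their median FPKM was 158, 154, 169 and 161. The median range was 0.31, from 0.10 to 0.40, and the highest stage was at most 1.32 times the lowest. Over the other 635 abundant genes the median range was 1.33, and the median ratio of highest to lowest stage was 2.52. By the steps between low FPKM values, the libraries held about 59.2 to 100.3 M (mega, as in megabases) fragments, or that relative depth if they had been scaled to each other. At this depth the largest counting error of a log2 difference between stages of any of the 45 was 0.036. That figure leaves out differences between plants and preparations, which 1 library per stage cannot show.

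Most of the set lay near the lower limit of abundance. The mean FPKM over the stages ran from 108 to 1054 with a median of 161, and 31 of the 45 genes had a mean under 200 while 3 reached 500. Among all single-gene loci the share that met the range limit was 12.1% where the lowest FPKM was 10 to 30, 12.8% at 30 to 100, 7.26% at 100 to 300 (39 of 537) and 4.20% at 300 or more (6 of 143). Ribosomal protein and photosynthesis genes crowd the upper classes, and without them the last 2 shares were 9.26% and 6.94%.

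**Figure D1:**
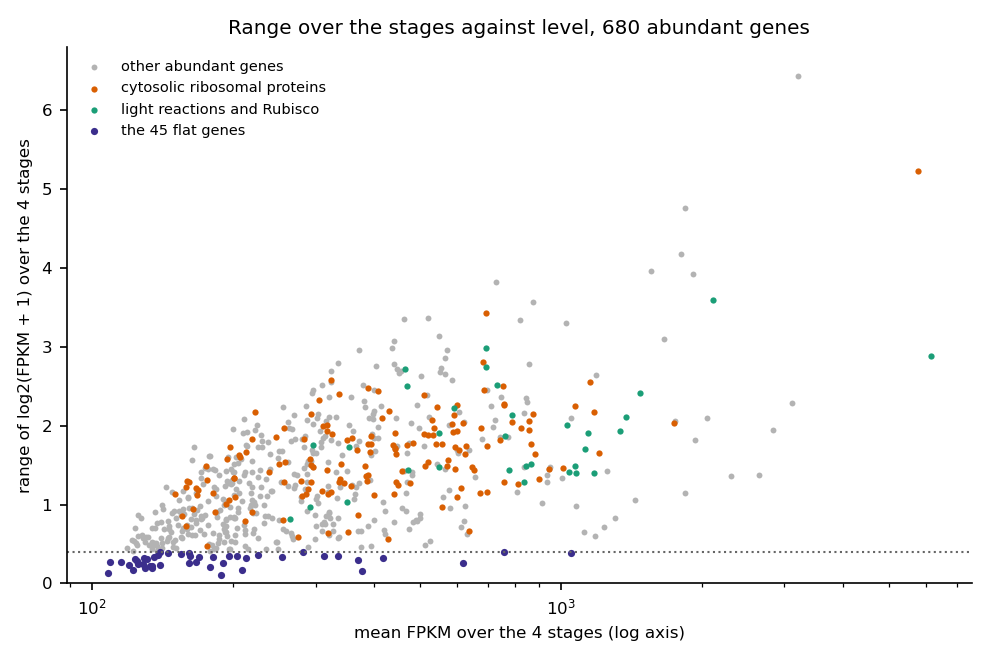
Range of log2(FPKM + 1) over the 4 stages against mean FPKM (log axis) for the 680 abundant genes, 1 point per gene, with the limit of 0.4 as a dotted line. The 45 flat genes lie under the line, only 1 of the 155 ribosomal protein genes is among them, and the sloping left edge follows from requiring an FPKM of 100 in every stage.

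The genes just inside the range limit were MDAR1 (0.386), GSTL3 (0.387), TRX2 (0.394), ARFA1E (0.396) and AT3G17020 (0.398). Just outside it were the 14-3-3 gene GRF5 (0.408), the protein disulfide isomerase gene UNE5 (0.411), the V-ATPase subunit H gene AT3G42050 (0.417), AT3G23600 (0.430) and UBQ7 (0.430). At the other limit, AT4G34450 entered with a lowest FPKM of 100.7, while AT4G24820, an Rpn7 subunit of the proteasome, and the proteasome gene PAF1 missed it at 99.7 and 98.1. The boundary thus falls between genes of nearly equal values.

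Flat genes did not share a stage of maximum. Of the 45, 15 peaked in stage 1, 7 in the second stage, 15 in the third and 8 in the last, whereas 417 of the other 635 abundant genes (65.7%) were highest in stage 1. The median difference between stage 4 and stage 1 was -0.08 on the log2 scale in the set and -0.87 in the other abundant genes. From stage 1 to stage 4, 15 of the 45 genes were numerically higher and the remaining 30 lower, all by less than 0.4. This split depended on the scale: 29 were higher and 16 lower with equal FPKM sums over loci of at least 300 bases, and all 45 were higher with equal sums over all loci.

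**Figure D2:**
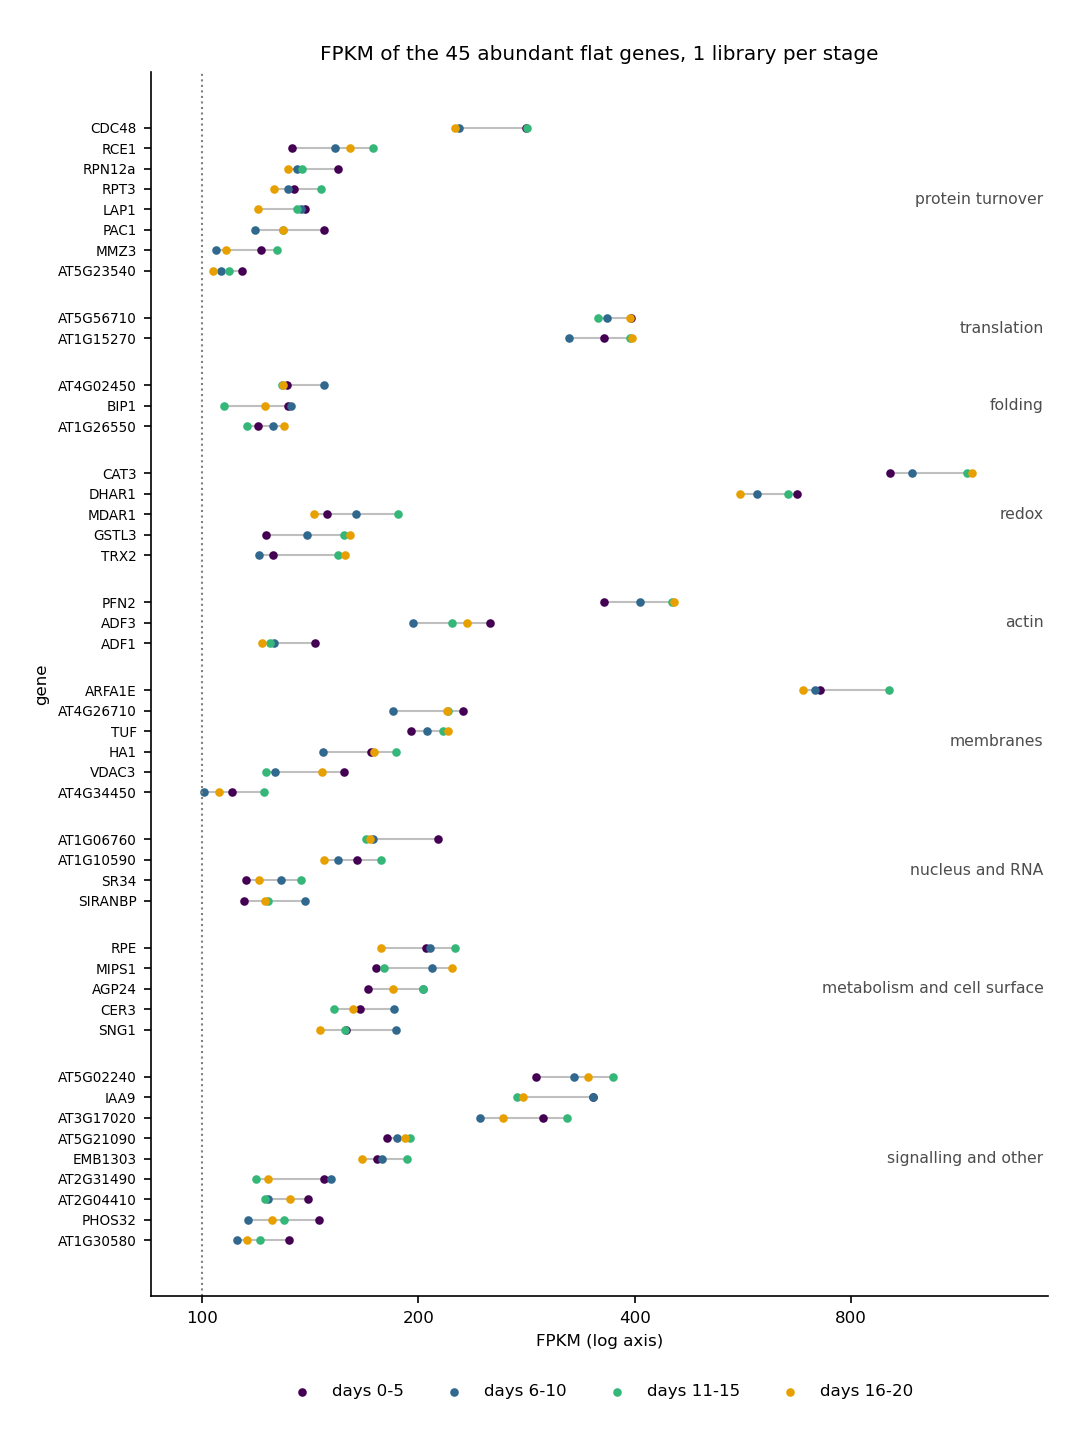
FPKM (log axis) of each of the 45 genes in the 4 libraries, 1 point per stage, with genes grouped by role and a dotted line at FPKM 100. The 4 points of each gene lie close together, from AT5G21090 with a highest-to-lowest ratio of 1.08 to AT3G17020 with 1.32.

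Protein breakdown accounted for 8 of the genes, most of which act in or before the proteasome, the barrel-shaped protease that degrades ubiquitin-tagged proteins. RPT3, an ATPase of the regulatory cap that unfolds substrates, stood at 134, 132, 146 and 126 FPKM in stages 1 to 4. RPN12a, of the lid of the cap, was at 155, 135, 138 and 132 FPKM. AT5G23540, a Mov34/MPN/PAD-1 protein that RefSeq places in the lid, was at 114, 106, 109 and 104 FPKM, the second smallest range of the 45 at 0.13. PAC1, an alpha subunit of the core barrel, was at 148, 119, 130 and 130 FPKM. These 4 genes were within a ratio of 1.25 across the stages, and in 3 of them stage 4 was the lowest.

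Upstream of the proteasome, CDC48, an ATPase that pulls ubiquitin-tagged proteins out of complexes and membranes, was at 282, 228, 283 and 225 FPKM, with stages 2 and 4 below stages 1 and 3. RCE1, which conjugates the ubiquitin-like RUB1 to cullins, was lowest in stage 1 at 134 FPKM and highest in stage 3 at 173 FPKM. MMZ3, a ubiquitin-conjugating enzyme variant, was between 105 and 127 FPKM. The aminopeptidase gene LAP1 was between 120 and 139 FPKM, lowest in stage 4.

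Of the 5 proteasome genes that were abundant, 4 were flat. The fifth was PBE1, a beta subunit of the core, at 164, 119, 110 and 100 FPKM with a range of 0.71. The abundance limit removed most subunits, so the wider list of 43 proteasome genes with an FPKM of at least 10 in all libraries was also described. There, 20 of 43 genes (46.5%) met the range limit, against 11.7% of all 6775 loci at that level. With libraries brought to a common median ratio the count was 17 of 43, beside 11.8% of the 6775 loci. With equal FPKM sums over loci of at least 300 bases it was 5 of 43 (11.6%) beside 6.598%, and with equal sums over all loci 0 of 43 beside 0.384%. Among ribosomal protein genes at the same FPKM limit, 1 of 206 was flat.

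Within the core barrel the subunits split by ring. The core is built of outer rings of alpha subunits, which gate the entrance, and inner rings of beta subunits, some of which carry the cutting sites. All 11 genes that RefSeq names as alpha subunits, from PAF1 with a range of 0.17 to PAD1 with 0.39, met the range limit of 0.4. Of the 8 with a beta subunit symbol, 1 did (PBC2, 0.38), and the others ran from 0.58 to 1.04. For 2 further core genes, AT1G79210 (0.38) and AT3G26340 (0.58), the names give no ring, and they were left out of this split. This division by ring was made after the values had been seen, and the genes of a ring share ancestry.

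As deposited, the beta subunit genes were all highest in stage 1. This depended on the scale, and with equal FPKM sums over all loci all 8 were higher in stage 4 than in stage 1. PBD2 was at 115, 75.3, 62.4 and 55.3 FPKM, PBC1 at 156, 100, 91.3 and 76.2 FPKM, and PBB1 at 152, 110, 101 and 79.2 FPKM. Their median difference between stage 4 and stage 1 was -0.68 on the log2 scale, beside -0.18 for the alpha subunits, and every rescaling tried shifts both by nearly the same amount. How many alpha genes passed the range limit did depend on the scale: 9 of 11 with libraries brought to a common median ratio, 2 with equal FPKM sums over loci of at least 300 bases and 0 with equal sums over all loci. No beta gene passed under these 3 scalings. PAC1 was the one alpha gene above 100 FPKM throughout. Among 22 genes of the regulatory cap and its partners, 7 were flat as deposited. The widest range was that of RPT1A, at 94.9, 127, 180 and 197 FPKM, the opposite direction to the beta subunits on that scale. Subunits of this complex were thus not all flat, and PAC1 is the one core subunit gene among the 45.

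**Figure D3:**
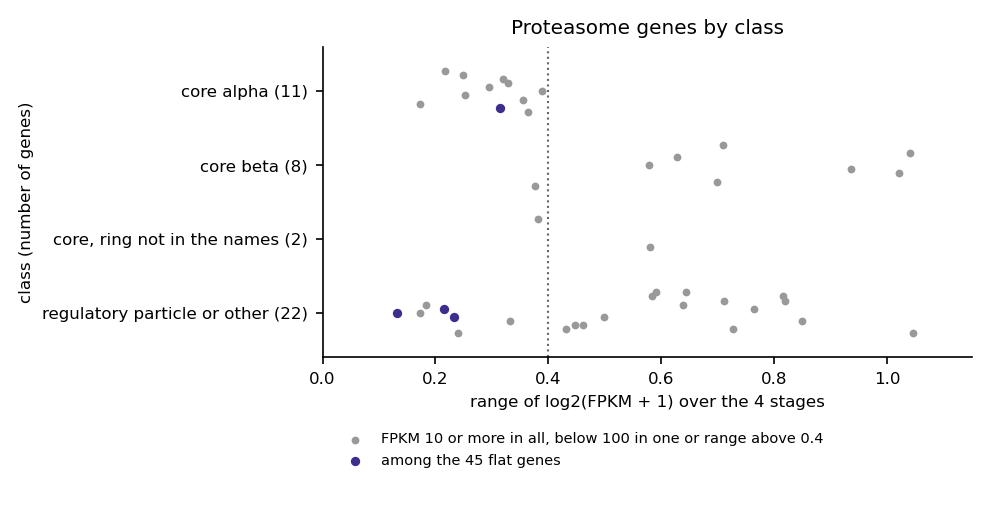
Range of log2(FPKM + 1) over the 4 stages for 43 proteasome genes with an FPKM of at least 10 in all libraries, by class, 1 point per gene and a dotted line at 0.4. The 11 alpha subunit genes lie left of the line, 7 of the 8 beta subunit genes lie right of it, and the 4 dark points are the flat abundant genes.

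Ribosomal protein genes were almost missing from the set. The list of cytosolic ribosomal proteins had 155 abundant genes, and 1 was flat. Of the 155, 138 were at least 2-fold lower in stage 4 than in stage 1 and 0 were higher, against 43.1% lower and 7.94% higher over all abundant genes. Their median FPKM was 730, 326, 274 and 256 in stages 1 to 4. The median stage 4 to stage 1 difference was -1.50 as deposited and turned to 0.73 with equal FPKM sums, which moved the median of all abundant genes from -0.78 to 1.44, so relative to other abundant genes the ribosomal ones were lower under both. The flat gene was AT5G56710, a protein of the L31e family in the large ribosomal subunit (chromosome 5, 22943831 to 22944971, TAIR10), at 395, 366, 355 and 393 FPKM with a range of 0.15. Stages 1 and 4 of this gene differed by 0.01 on the log2 scale. Near-identical ribosomal protein copies can share reads, so single copies of such families are uncertain.

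Its closest relative, AT4G26230, encodes the same kind of subunit and stood at 349, 239, 113 and 123 FPKM, a range of 1.62. The 2 copies were closest in stage 1 and farthest apart in stages 3 and 4. The other flat gene with a role in translation was AT1G15270, annotated as the translation machinery associated protein TMA7, at 362, 324, 394 and 397 FPKM. None of the 11 abundant initiation and elongation factor genes was flat, the closest being EIF3K at 150, 127, 112 and 104 FPKM, and at an overall share of 6.62% a count of 0 in so few genes shows little. Of the 53 genes of this list with an FPKM of at least 10 in all libraries, 9 (16.98%) met the range limit, beside 11.7% of all loci at that level.

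The place of ribosomal protein genes depended on stage 1. When the rule was applied to stages 2 to 4 alone, 261 of 784 abundant genes (33.3%) were flat, and 84 of 155 ribosomal protein genes were among them, but 0 of 33 light reaction and Rubisco genes were. Without stage 2 the rule gave 111 genes, without stage 3 it gave 75, and without stage 4 it gave 92. Each of these sets held all 45 genes, as a smaller number of stages cannot widen a range.

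Promoter letters linked to ribosomal protein genes in plants were looked up around the starts of the flat genes. These are the telo box AAACCCTA and the site II letters TGGGCC and TGGGCT, which were counted on both strands from 250 bases before to 50 after the start in the files. Site II letters were within this window in 21 of 45 flat genes (46.7%, Wilson 95% interval 32.9% to 60.9%), in 134 of 155 ribosomal protein genes (86.5%) and in 22.4% of all 22744 protein-coding genes. Across the other 629 abundant protein-coding genes the share was 47.5%, close to that of the flat genes. It was 34.9% in those of them that are not ribosomal and 62.8% over the 43 proteasome genes. The telo box was found in 5 of 45 flat genes (11.1%), in 74.2% of ribosomal protein genes and in 7.71% of all. Among the other abundant genes its share was 22.7%, or 5.89% without ribosomal protein genes. Both kinds of letters together were present in 1 flat gene, AT1G26550, against 67.1% of ribosomal protein genes and 2.92% of all. TATAAA was found in 55.6% of flat genes and 53.3% of all, and the first letters of the tef box, AGGGGCAT, in 0 of 45 and 0.211% of all.

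The flat L31e gene had both site II forms but no telo box in its window. Sequence upstream of it, of its less constant relative and of 3 flat proteasome genes is shown because these genes carry the contrasts above. Letters are from the RefSeq genome TAIR10.1, written 5′ to 3′ on the gene's strand, and cover those of the 250 bases before the start that lie outside every RefSeq gene. Capitals mark TGGGCC or TGGGCT on either strand, and no telo box occurs in them.
AT5G56710 (chr5:22944994-22945221, minus strand): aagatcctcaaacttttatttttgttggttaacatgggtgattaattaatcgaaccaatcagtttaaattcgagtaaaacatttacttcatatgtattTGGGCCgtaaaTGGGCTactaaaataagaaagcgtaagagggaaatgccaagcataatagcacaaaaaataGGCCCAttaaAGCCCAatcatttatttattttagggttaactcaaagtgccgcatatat
AT4G26230 (chr4:13285575-13285736, plus strand): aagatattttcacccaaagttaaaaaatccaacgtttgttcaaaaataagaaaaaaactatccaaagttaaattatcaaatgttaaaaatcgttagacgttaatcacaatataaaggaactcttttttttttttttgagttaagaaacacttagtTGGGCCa
RPT3 (chr5:23568860-23569051, plus strand): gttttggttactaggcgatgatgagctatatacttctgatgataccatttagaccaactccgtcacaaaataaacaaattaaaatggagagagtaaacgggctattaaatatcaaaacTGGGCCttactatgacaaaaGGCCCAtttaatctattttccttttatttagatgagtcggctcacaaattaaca
PAC1 (chr3:7794263-7794415, minus strand): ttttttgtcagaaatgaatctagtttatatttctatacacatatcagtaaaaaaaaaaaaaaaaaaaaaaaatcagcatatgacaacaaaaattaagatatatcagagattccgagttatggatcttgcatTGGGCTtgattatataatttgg
AT5G23540 (chr5:7937419-7937629, plus strand): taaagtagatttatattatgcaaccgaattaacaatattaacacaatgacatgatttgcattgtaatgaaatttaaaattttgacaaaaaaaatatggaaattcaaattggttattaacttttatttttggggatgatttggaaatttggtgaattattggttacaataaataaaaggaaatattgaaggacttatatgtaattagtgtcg
AT5G56710 holds 2 copies each of TGGGCC and TGGGCT in this stretch, RPT3 2 of TGGGCC, AT4G26230 and PAC1 1 motif each, and AT5G23540 none. The printed stretches of PAC1 and AT4G26230 end 97 and 88 bases before the start, and the whole window counted above holds 3 site II motifs in PAC1 and 2 in AT4G26230, against 4, 2 and 0 in AT5G56710, RPT3 and AT5G23540. All but AT4G26230 were flat. A match of letters is a description of the window and no site of binding was measured.

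Protein folding added 3 of the 11 abundant chaperone and prolyl isomerase genes (27.3%), beside 6.62% of all abundant genes. At an FPKM of at least 10 in all libraries, 8 of 79 genes of this list (10.13%) met the range limit, beside 11.7% of all loci. AT1G26550, a peptidyl-prolyl isomerase that helps proline bonds turn during folding, was at 120, 125, 115 and 130 FPKM, a range of 0.17. Its closest relative PIN1AT had almost the same range, 0.17, at 89.2, 101, 98.0 and 97.6 FPKM. AT4G02450, of the HSP20-like family, was at 131, 148, 129 and 130 FPKM. BIP1, the HSP70 chaperone of the endoplasmic reticulum, was at 132, 133, 107 and 122 FPKM, but it is nearly identical to BIP2 and the split between these copies is uncertain. The abundant members of the same list that varied most were ROC5, with 1824 FPKM in stage 1 and 380 in stage 4, and ROC1, with 266 and 724.

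Removal of reactive oxygen was represented by the most abundant gene of all 45. CAT3, a catalase that splits hydrogen peroxide (chromosome 1, 7143067 to 7146540), was at 905, 973, 1158 and 1179 FPKM. As deposited, CAT3 was numerically higher at each later stage, an order not kept with equal FPKM sums over loci of at least 300 bases. DHAR1, which recycles the antioxidant ascorbate with glutathione, was at 673, 592, 652 and 560 FPKM. MDAR1, which recycles ascorbate by a second route, was at 149, 164, 187 and 143 FPKM, highest in stage 3. TRX2, a thioredoxin that reduces disulfide bonds, and GSTL3, a glutathione transferase of the lambda class, were both higher in stages 3 and 4 than in 1 and 2, with TRX2 at 126, 120, 155 and 158 FPKM and GSTL3 at 123, 140, 158 and 161 FPKM.

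Among 6 abundant antioxidant enzymes, a list added after the values had been seen, DHAR1, CAT3 and MDAR1 were flat, beside 6.62% of all abundant genes. The other 3 were MSD1 (range 0.69), CAT1 (1.68) and CSD1 (2.70), of which CSD1 was at 906, 240, 139 and 544 FPKM. At an FPKM of at least 10 in all libraries, the list had 15 genes, and the same 3 (20%) were the only ones within the range limit. This share, beside 11.7% of all loci, thus restates their membership. The closest relative of CAT3, CAT2, was at 32.7, 113, 202 and 184 FPKM, and CAT3 stood above CAT1 and CAT2 together in every stage.

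Actin regulation was represented by PFN2, ADF3 and ADF1. Profilin delivers actin monomers to growing filaments, and PFN2 was at 362, 406, 450 and 453 FPKM. The actin depolymerizing factors sever filaments, with ADF3 at 251, 196, 223 and 234 FPKM and ADF1 at 144, 126, 124 and 121 FPKM. The other 3 abundant cytoskeletal genes were all highest in stage 1: ACT7 at 759, 428, 381 and 311 FPKM, TUA6 at 1215, 494, 314 and 190 FPKM and TUA4 at 933, 444, 271 and 141 FPKM. Other actin regulators below the FPKM limit were less constant, with the profilin gene PRF1 at a range of 1.51 and ADF4 at 209, 103, 92.4 and 91.9 FPKM, a range of 1.18.

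Membrane energisation and traffic contributed 6 genes. TUF, subunit E1 of the vacuolar proton pump (V-ATPase), was at 195, 206, 216 and 220 FPKM with a range of 0.17. AT4G26710, a V0 subunit of the same pump, was at 230, 184, 220 and 220 FPKM, lowest in stage 2. Of the 11 abundant genes of the list of V-ATPase subunits and the vacuolar pyrophosphatase, these 2 (18.2%) were flat, beside 6.62% of all abundant genes. At an FPKM of at least 10 in all libraries, 4 of 23 (17.4%) met the range limit, beside 11.7% of all loci. The remaining 9 abundant genes of the list had ranges up to that of the pyrophosphatase AVP1, at 1010, 356, 288 and 158 FPKM (2.67). Subunits of the V-ATPase were thus spread over ranges of 0.17 to 1.75, from TUF to the proteolipid gene AVA-P1 at 400, 118, 124 and 209 FPKM.

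HA1, a proton pump of the plasma membrane, was at 172, 147, 186 and 173 FPKM. VDAC3, a pore of the outer mitochondrial membrane, was at 158, 126, 123 and 147 FPKM. In the list of mitochondrial respiration and transport, 1 of 31 abundant genes (3.23%) was flat, beside 6.62% of all abundant genes. At an FPKM of at least 10 in all libraries, 2 of 59 genes of this list (3.39%) met the range limit, beside 11.7% of all loci. ARFA1E, a small GTPase that starts the formation of transport vesicles, was the second most abundant of the 45 at 725, 713, 903 and 686 FPKM, with stage 3 above the other stages. AT4G34450, a gamma subunit of the vesicle coat COPI, was the gene nearest to the FPKM limit at 110, 101, 122 and 105 FPKM. Other ARF GTPase genes were less constant, with ARFA1D at 554, 256, 197 and 175 FPKM.

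In the nucleus, AT1G06760, which RefSeq places in the nucleosome, was at 213, 173, 169 and 171 FPKM. Of 7 abundant histone genes it was the 1 that was flat (14.3%), beside 6.62% of all abundant genes. At an FPKM of at least 10 in all libraries, 2 of 28 histone genes (7.14%) met the range limit, beside 11.7% of all loci. AT1G06760 overlaps AT1G06750 and AT1G04503 on the opposite strand, and the library kit did not keep the strand, so reads of these genes cannot be told apart. SR34, a splicing factor, was at 115, 129, 137 and 120 FPKM. SIRANBP, named as a Ran-binding protein, was at 114, 139, 124 and 122 FPKM, and AT1G10590, with an OB fold that binds nucleic acids, was between 148 and 177 FPKM.

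Metabolism and the cell surface gave 5 genes. MIPS1, which makes inositol phosphate from glucose phosphate, was at 175, 209, 179 and 223 FPKM. RPE, an epimerase of the Calvin cycle in the chloroplast, was at 205, 208, 225 and 178 FPKM. Of 32 abundant genes of the light reactions and Rubisco, 0 were flat, beside 6.62% of all abundant genes. CER3, needed for wax alkanes of the cuticle, was at 166, 185, 152 and 162 FPKM. SNG1, which makes sinapoylmalate, a compound that shields leaves from ultraviolet light, was at 158, 186, 158 and 146 FPKM. AGP24, an arabinogalactan protein of the cell surface, was at 170, 203, 203 and 184 FPKM.

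The flattest gene of all was AT5G21090, a leucine-rich repeat protein (chromosome 5, 7164603 to 7167255), at 181, 186, 195 and 191 FPKM, a range of 0.10. IAA9, a repressor of auxin signalling whose loss in tomato gives fruit without fertilisation, was at 350, 349, 274 and 279 FPKM, with stages 1 and 2 above stages 3 and 4. AT5G02240, with an NAD(P)-binding fold, was at 292, 330, 373 and 344 FPKM, and AT3G17020, of the adenine nucleotide alpha hydrolase family, at 298, 244, 321 and 262 FPKM. EMB1303, required for chloroplast development, was between 167 and 193 FPKM. The other 4 were PHOS32, AT2G04410, AT1G30580 and AT2G31490, with ranges of 0.20 to 0.34 and all between 112 and 151 FPKM.

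Of the 45 genes, 20 fell in 11 of the 16 functional lists drawn up for this description, and 25 fell in none of them. The lists with the largest share of flat abundant genes were proteasome (4 of 5), cytoskeleton (3 of 6) and chaperones and prolyl isomerases (3 of 11), beside 6.62% overall. At an FPKM of at least 10, where 11.7% of all loci met the range limit, the shares were 46.5% for the proteasome, 13.8% (4 of 29) for the cytoskeleton and 10.13% (8 of 79) for chaperones and prolyl isomerases. With equal FPKM sums over loci of at least 300 bases, flat abundant genes numbered 3 for the proteasome, 1 for the cytoskeleton and 0 for chaperones, while ubiquitin and its conjugating enzymes went from 2 to 7. Lists with none were translation factors (0 of 11), glycolysis and the methionine cycle (0 of 15), entry and folding in the endoplasmic reticulum (0 of 8), 14-3-3 proteins (0 of 5) and light reactions with Rubisco (0 of 32). Without ribosomal protein genes, 44 of 525 abundant genes (8.38%) were flat. These shares rest on few genes per list and were not tested.

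**Figure D4:**
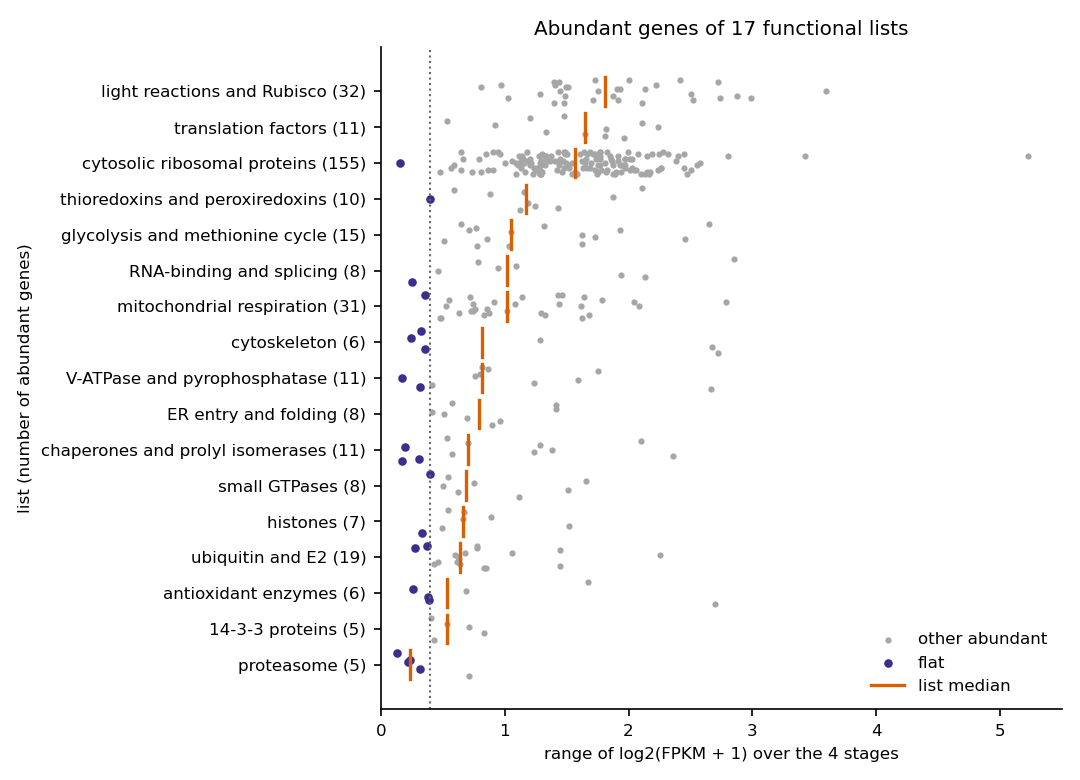
Range of log2(FPKM + 1) over the 4 stages for the abundant genes of 17 functional lists, 1 point per gene, flat genes dark, list medians as vertical bars and the limit of 0.4 dotted. The proteasome median of 0.23 is the one left of the limit, and the light reactions have the highest median at 1.81.

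The range limit was put on the flat genes and not on their relatives, so the wider ranges of the relatives follow from the choice. For 36 of the 45 genes RefSeq notes name a best matching Arabidopsis protein whose gene was measured, and 26 of these relatives had an FPKM of at least 10 in all libraries. Of the 26, 5 (19.2%) met the range limit, beside 11.7% of all loci at that level, and the median range of the 26 was 0.99. The relatives of the other abundant genes, which had themselves missed the limit, met it in 9 of 384 cases (2.34%), with a median of 1.37. Of these flat relatives, 1 of the 5 and 4 of the 9 were themselves among the 45, so the rule had fixed their range. The other abundant genes include the ribosomal protein list, of which 1 of 206 genes was flat, and no share without that list was computed. A relative that was not flat need not be a gene of the same function, and members of 1 family share ancestry.

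CER1, which works with CER3 in making wax alkanes, was at 406, 228, 18.02 and 36.0 FPKM, the widest range of a relative at 4.42. PRF1, the relative of PFN2, was at 244, 97.8, 91.3 and 85.2 FPKM. IAA8, the relative of IAA9, was at 442, 311, 172 and 170 FPKM. At the other end, RPT2a, matched to RPT3, was at 95.4, 105, 97.0 and 88.6 FPKM, and AT2G30060, matched to SIRANBP, at 52.0, 57.8, 47.7 and 49.5 FPKM. ADF3, matched to ADF1, was the one gene whose relative also belonged to the 45.

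**Figure D5:**
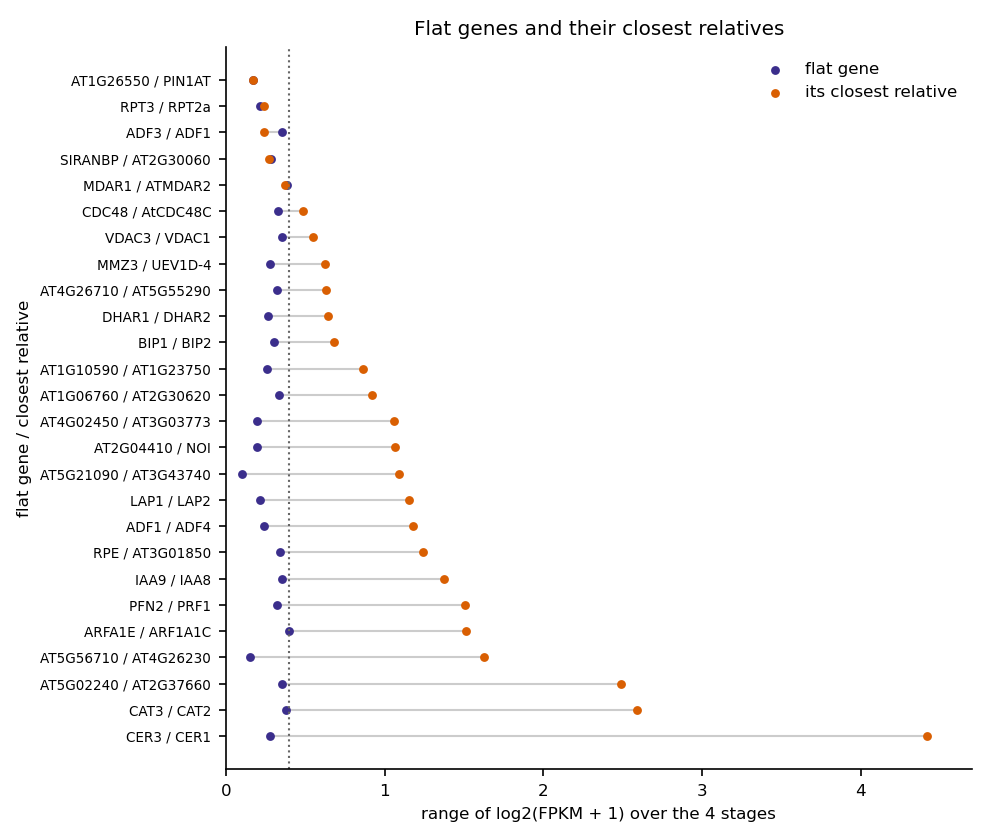
Range of log2(FPKM + 1) over the 4 stages for 26 flat genes and the closest relative of each, where the relative had an FPKM of at least 10 in all libraries, with a dotted line at 0.4. Of the 26 relatives 5 lie left of the line, and CER1 lies farthest right at 4.42.

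Genes commonly used to normalise PCR in Arabidopsis were compared with the set. Of 29 such genes, 26 had a locus of their own, TUB2 shared one, and TUA5 and UPL7 were not analysed here. Of the 26, 13 were abundant and 0 were among the 45, a count that a share of 6.62% over all abundant genes does not set apart. YLS8 came closest, at 268, 278, 354 and 257 FPKM with a range of 0.46, followed by UBC9 (0.61), UBC10 (0.62) and GAPC2 (0.71). ACT2 was at 382, 164, 108 and 89.1 FPKM, and the elongation factor gene AT5G60390 at 3892, 1451, 1291 and 1102 FPKM.

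Lower on the scale, 3 of the reference genes met the range limit with an FPKM of at least 10 throughout: AT2G28390 (0.33), AT4G26410 (0.34) and AT4G33380 (0.37). AT5G15710 did so at 4.97 to 6.59 FPKM. UBQ10 was at 1015, 1198, 2117 and 1440 FPKM, the highest mean of the PCR genes with a single locus after AT5G60390.

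The genes of the set had longer median transcripts than other abundant genes. The median transcript length was 1236 bases against 1044.5, the median coding length 723 against 517.5 bases and the median number of exons 6 against 4. Ribosomal protein genes are short, and without them the other abundant genes had medians of 1162.5 transcript bases, 579 coding bases and 3 exons. The 45 genes lay on all 5 chromosomes, with 11, 6, 6, 7 and 15 on chromosomes 1 to 5. These chromosomes held 178, 107, 142, 104 and 149 of the 680 abundant genes, and the difference was not tested. A gene on the opposite strand overlapped 6 of the 45 (13.3%) and 15.9% of the other abundant genes. The 6 were PFN2, TRX2, LAP1, AT1G06760, AT2G04410 and AT4G02450, whose values may include reads of the partner. The same holds for SIRANBP, which overlaps AT1G07135 on its own strand. With either strand counted, 7 of the 45 (15.6%) and 17.5% of the other abundant genes overlapped a gene.

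Membership depended on how the libraries were scaled to each other. Unless another scale is named, all values above and the order of the stages within each gene are as deposited. With ranges this small, that order can change with the scale. A common median ratio over loci with FPKM of at least 1 changed the libraries by factors of 0.985 to 1.03 and left 41 of the 45 genes in a set of 42. Scaling to equal FPKM sums over loci of at least 300 bases took factors of 0.901 to 1.25 and gave a set of 56 that shared 12 genes with the 45, including 0 ribosomal protein genes. The deposited scale was thus close to one set by the median gene, and flatness relative to total messenger RNA per fruit was not measured.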

How the data were processed

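RNA of whole siliques was prepared with Trizol, DNase and column purification and sequenced from both ends, with a TruSeq kit that does not keep the strand, per the labels' protocols. The deposited FPKM are the authors' values, 1 per Cufflinks locus. TopHat, Cufflinks, Cuffdiff and TAIR10 are named in the submitters' processing notes, and their versions are not given in the sources used. Stages follow the sample's stage label, although the protocol text states different days for stages 1 and 4.

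Each file had 30915 rows, reduced to 29971 loci, of which 818 naming several genes were left out. FPKM are not counts and each stage has 1 library, so no test was run and no p-value is given. Names, lengths and closest relatives came from RefSeq TAIR10.1, in which all 45 genes were found by identifier, and coordinates are those of the files. Depth was read from the spacing of low FPKM values, of which 70.0% to 78.1% were whole fragments within 0.2, where evenly spread values would give 40%. That step was chosen on the same values.

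The genes and lists were chosen with earlier results of these data known. Named genes were the 10 most abundant and the 10 flattest, those next to the limits, up to 6 flat genes and 3 abundant genes of wide range per list, and the PCR reference genes; others were named after their values were seen, as were the division of proteasome genes by ring and the grouping by role. The rule was tested on simulated loci. Alternatives were pseudocounts of 0.1 and 5, other limits, 3 scalings and leaving out a stage. Software was pandas 2.3.3, numpy 2.4.6 and SciPy 1.17.1 under Python 3.11.15, with figures from matplotlib 3.10.9.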

Additional observations from a re-analysis of the deposited data

How the results depend on the processing

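The number of flat genes, 45 as reported, was 2485 with no FPKM limit beyond a value above 0, 131 at a limit of 50 and 10 at 200. The 2485 include genes that are not abundant and have values near 0, where the pseudocount of 1 narrows the range. At an FPKM of at least 1 in all libraries, 1382 loci met the range limit. The number of abundant flat genes was 22 with a range limit of 0.3 and 72 with 0.5. Scaling to equal FPKM sums gave 10 genes, 0 of them among the 45. The factors of that scaling ran from 0.502 to 2.37. Leaving out stages 1 to 4 in turn gave 261, 111, 75 and 92. Within the 16 lists, 20 as reported, the same settings gave 119, 40, 3, 10, 31 and 4 genes, and 158, 39 and 33 without stages 1, 2 and 4. Flat ribosomal protein genes numbered 3 with no FPKM limit, 2 with a range limit of 0.5, 0 with equal sums over loci of at least 300 bases, and 84 and 2 without stages 1 and 2. Flat proteasome genes numbered 21 with no FPKM limit, 15 at 50, and 0 at 200 and with equal FPKM sums. The 21 include RPN12b, at 0.32 to 0.74 FPKM. The median difference of the 45 genes between stages 4 and 1 was 2.16 with equal FPKM sums, a setting added after seeing the data. On the forward strand alone TATAAA was found in 40% of flat genes and 38.7% of all genes, and the telo box share of ribosomal protein genes was 39.4%, or 44.5% in only the 250 bases before the start. Their share with telo box and site II was 25.8% and 40.6% in these settings. Beyond the construction of each limit, the cause was not tested. The 2 other pseudocounts, the other 2 scalings, no length limit and including shared loci kept the count within 1.5 times the 45. No paired analysis was possible because each stage has 1 library and no test was made. The counting error given above rests on depth read from FPKM steps, and the error between samples was not measured.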

Other observations

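Loci that name several genes were left out of the set, and 3 of them would have met its other conditions. They name AT2G43745 with AT2G43750 (range 0.31), AT3G08510 with AT3G08530 (0.27) and AT5G38650 with AT5G38660 (0.39), and their joint values cannot be divided between the genes.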
